A study of Mus musculus with 8 samples.

Results

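The transcripts of 10 genes that encode the core of the mTOR kinase complexes and the TSC-Rheb arm above it were followed in mouse liver. The genes were taken by name (*Mtor*, *Rptor*, *Rictor*, *Mlst8*, *Akt1s1*, *Deptor*, *Tsc1*, *Tsc2*, *Rheb* and *Rps6kb1*) for their place in the pathway, and all 10 were present among the 14506 genes of the expression table. Whole liver RNA came from 4 *Rragc* S74N/+ and 4 *Rragc*+/+ mice. All were young C57BL/6 animals on standard chow. In *Rragc*+/+, replicates 1 to 3 were 3 months old and replicate 4 was 2.5 months old, whereas in *Rragc* S74N/+ replicates 1 and 2 were 3 months old, replicate 3 was 2.5 months old and replicate 4 was 2 months old. The edit is a germline knock-in at the endogenous locus, so every cell type of the liver carries 1 mutant and 1 normal allele. Sex is not given in the labels.

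mTOR is a serine/threonine kinase that works in a pair of complexes. In mTORC1 it is held by Raptor (*Rptor*) and is inhibited by PRAS40 (*Akt1s1*), and in mTORC2 it is held by Rictor (*Rictor*), while mLST8 (*Mlst8*) and the inhibitor Deptor (*Deptor*) bind mTOR in both. Amino acids bring mTORC1 to the lysosome through the Rag GTPases, where the small GTPase Rheb switches the kinase on. The TSC1-TSC2 complex turns Rheb off until insulin signaling restrains it, and S6 kinase 1 (*Rps6kb1*) is a main substrate of mTORC1. In liver this pathway couples feeding to protein and lipid synthesis.

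The amino acid change that separates the genotypes lies in exon 1 of *Rragc*, at codon 74, which spans chr4:123917753-123917755 of GRCm38 on the forward strand. The reference coding sequence around it, 27 bases from 123917741 to 123917767 with the serine codon in capitals, is shown because it defines both groups.
Rragc codon 74, reference: cgcagcggcaaaTCCtccatccagaag
In S74N this serine becomes asparagine, which holds RagC in the form that recruits mTORC1. Per the study's methods, the repair template also carried silent mutations near this codon, which are not marked in the stretch above. *Rragc* itself had a normalized read count of 84.1 ± 20.4 without and 76.6 ± 7.32 with the mutant allele (mean ± SD of 4 livers), and its groups overlapped (log2 difference -0.11, limma adjusted p = 0.931). Because such an edit can leave the amount of transcript as it was, this level is no check on the labels.

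Between 4313076 and 6632108 reads were recovered in listed genes per liver, the fewest in *Rragc*+/+ replicate 3. The 28 pairs of libraries differed by a chi-square of 14.6 to 101 per degree of freedom, far above sampling noise, so no library was entered again under another name. All 7 hepatocyte markers were present, at summed counts of 256487 to 467478, while the 8 markers of B and T lymphocytes, of which 6 were listed, summed to only 23.4 to 72.6. The sums of the hepatocyte, Kupffer cell, sinusoidal endothelial, stellate, cholangiocyte, lymphocyte and neutrophil lists overlapped between genotypes. Means were higher in *Rragc* S74N/+ for 6 of 7 hepatocyte, 5 of 8 Kupffer cell, 4 of 7 sinusoidal endothelial and 4 of 7 stellate markers. The same held for 4 of 5 cholangiocyte and 4 of 6 listed lymphocyte markers, and for 0 of the 3 neutrophil markers listed out of 6. A list of 7 kidney genes, of which 4 were listed, summed to 86.3 to 199.9 in *Rragc*+/+ and to 21.2 to 61.5 in *Rragc* S74N/+ livers, with no overlap. Only 1 of these 4 genes had a mean high enough to be tested, and *Slc12a1*, *Slc34a1* and *Miox* each had no reads in at least 1 liver. The genes did not go 1 way, since 2 of the 4 had the higher mean in *Rragc* S74N/+. The part of the kidney genes in the values below was not tested. In whole tissue, fewer cells of a type and less RNA per cell cannot be told apart.

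Values are normalized read counts, meaning reads per gene divided by a scaling factor of each liver. Because the libraries were primed at the poly(A) tail, a count follows the number of transcript copies and not their length, although priming and mapping differ between genes. *Deptor* was by far the most abundant of the 10 transcripts, at 3168 ± 897 over the livers (SD, n = 8), which placed it 187th of 14506 genes. Its mean was 47.7 times that of *Mtor* and 40.6 times that of *Akt1s1*, the other inhibitor. *Deptor* alone made up between 69.7% and 82.8% of the summed count of the 10 genes in a liver. *Rps6kb1* came next, at 258 ± 47.2, followed by *Rictor* at 174 ± 26.5 (SD, n = 8 each). The remaining genes lay close together, from *Tsc1* at 94.4 ± 15.6 through *Akt1s1* (78.0 ± 24.3), *Tsc2* (74.6 ± 18.5), *Mtor* (66.5 ± 20.7), *Rptor* (59.5 ± 18.7) and *Rheb* (58.2 ± 23.1) down to *Mlst8* at 33.8 ± 11.0 (SD, n = 8 each). *Mlst8* was 8079th among the listed genes, so these transcripts are of middling abundance in liver.

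The neighbours in this order were set by ranking the means of these same livers, so the p-values that follow describe how steadily each step held and are no independent test of it. The steps were compared between the 9 neighbouring pairs on the log2 difference within each liver (exact two-sided sign-flip permutation, n = 8, smallest possible p = 0.00781). The first 3 steps held in 8 of 8 livers: *Deptor* above *Rps6kb1* by 3.58 ± 0.24 on the log2 scale, *Rps6kb1* above *Rictor* by 0.56 ± 0.25, and *Rictor* above *Tsc1* by 0.88 ± 0.22 (SD; exact permutation p = 0.00781, adjusted over the pairs 0.0234 for each). From *Tsc1* to *Rheb* no neighbours differed beyond their spread, with adjusted exact permutation p from 0.253 to 0.938. *Rheb* was above *Mlst8* in 7 of 8 livers, by 0.72 ± 0.91 (SD), which did not pass either (exact permutation p = 0.0625, adjusted 0.141).

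**Figure D1:**
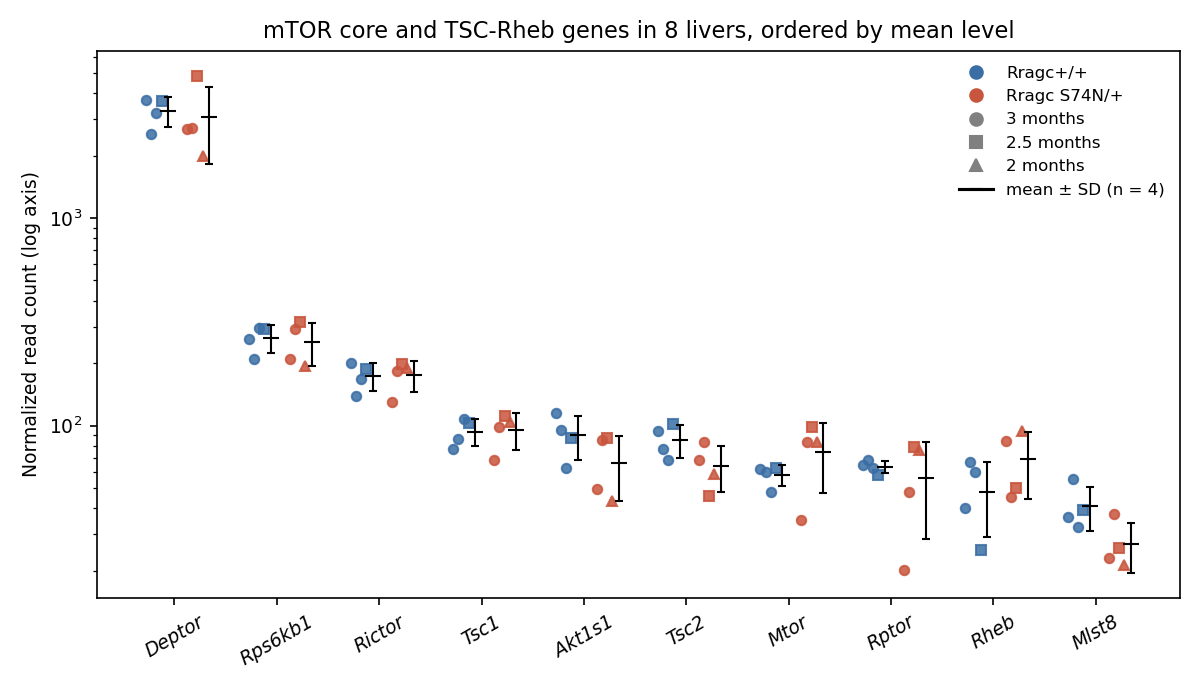
Normalized read count (log axis) of the 10 genes in each liver, ordered by mean, with blue for *Rragc*+/+ and red for *Rragc* S74N/+, the marker shape for age, and black bars for mean ± SD (n = 4). *Deptor* stands alone near 3168, and the genotypes overlap for every gene.

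To ask whether the livers differed by genotype in this pathway, each gene was read from a fit over the 11174 genes with a mean count of at least 10, which all 10 passed. With limma over all 8 livers, none of the 10 had an adjusted p under 0.05, where 0.00895% of all tested genes (1 gene) did, and none had an unadjusted p under 0.05, where 5.17% of all tested genes did. The count tools gave the same 0 of 10 at an adjusted and at an unadjusted p under 0.05. Over all genes, edgeR called 0.00895% adjusted and 5.53% unadjusted, and DESeq2, run on all 14506 listed genes, called 0.0414% and 5.76%. The genotypes did not overlap for 0 of the 10 genes, against 2.94% of all tested genes. Differences were below 0 for 6 of 10 genes, beside 48.7% of all genes, with a median of -0.12 beside 0.01. They were 0.25 or less in size for 4 of 10 genes, beside 48.8%. In 3-month-old mice alone, with 3 *Rragc*+/+ and 2 *Rragc* S74N/+ livers, the log2 differences were 0.19 for *Rheb*, -0.45 for *Mlst8*, -0.43 for *Akt1s1*, -0.21 for *Deptor*, -0.13 for *Tsc1*, -0.11 for *Rictor* and -0.03 for *Rps6kb1*, with *Mtor*, *Rptor* and *Tsc2* given below. None had an adjusted p under 0.05 with limma. The ages of 2.5 and 2 months held too few livers for a comparison of their own. Over all livers the standard error of these differences had a median of 0.29, beside 0.32 over all tested genes.

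*Mtor*, the kinase, lies on chromosome 4 from 148448611 to 148557683 (GRCm38, forward strand). From replicate 1 to replicate 4, the counts were 61.5, 59.9, 48.1 and 62.6 for *Rragc*+/+ and 34.9, 83.5, 98.1 and 83.2 for *Rragc* S74N/+, and this order is kept for the genes that follow. In *Rragc* S74N/+, replicate 1 was below and the other 3 livers were above every *Rragc*+/+ liver. *Mtor* differed by 0.27 on the log2 scale (standard error 0.33, limma adjusted p = 0.872; exact permutation p = 0.514). It was 0.60 without *Rragc* S74N/+ replicate 1, where limma gave an unadjusted p under 0.05 and an adjusted p of 0.999. In the 3-month-old mice alone the sign turned, to -0.05.

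*Mlst8*, which binds the kinase domain, lies on chromosome 17 from 24473551 to 24479078 (reverse strand). Its counts were 36.4, 55.2, 32.5 and 39.2 in *Rragc*+/+ and 23.0, 37.3, 25.6 and 21.2 in *Rragc* S74N/+ livers, on 23 to 59 reads each. *Rragc* S74N/+ replicates 1, 3 and 4 were below every *Rragc*+/+ liver and replicate 2 was not. The log2 difference of -0.60, with a standard error of 0.33 and a 95% interval from -1.30 to 0.11, had the smallest unadjusted p of the 10 genes (limma p = 0.0901, adjusted p = 0.846; exact permutation p = 0.0857). It stayed below 0 in every setting that gave a value, between -0.76 and -0.44, and its unadjusted p was under 0.05 with limma without the trend and without *Rragc* S74N/+ replicate 2. Within a liver, *Mtor* minus *Mlst8* was 0.52 ± 0.28 on the log2 scale in *Rragc*+/+ and 1.39 ± 0.65 in *Rragc* S74N/+ (mean ± SD of 4 livers), above 0 in all 8 livers. Replicates 2 to 4 of *Rragc* S74N/+ exceeded the highest *Rragc*+/+ liver at 0.74, and replicate 1 did not at 0.58. The gene shares exonic positions with *Bricd5* on the opposite strand, which counting by strand keeps apart.

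*Rptor*, the mTORC1 scaffold that presents substrates to the kinase, lies on chromosome 11 from 119602905 to 119899576 (forward strand). Its counts were tightly grouped in *Rragc*+/+ livers, at 64.3, 68.3, 62.2 and 57.9. They were 20.2, 48.0, 79.1 and 75.9 in *Rragc* S74N/+ livers. No *Rragc* S74N/+ liver fell within the *Rragc*+/+ range, since the 3-month-old replicates 1 and 2 were below it and the younger replicates 3 and 4 above it. *Rptor* thus had a log2 difference of -0.35 (standard error 0.39, limma adjusted p = 0.861; exact permutation p = 0.629). In 3-month-old mice alone, 2 livers against 3, it was -1.03, with an unadjusted p under 0.05 and an adjusted p of 0.834 (limma). Without *Rragc* S74N/+ replicate 1, whose value rests on 22 reads, it was 0.07. Age and individual mouse cannot be told apart here.

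*Rictor*, the scaffold of mTORC2, lies on chromosome 15 from 6708379 to 6800401 (forward strand). Its counts were 200.4, 139, 167 and 188 in *Rragc*+/+ and 130.4, 183, 197 and 190.1 in *Rragc* S74N/+ livers. Replicate 1 of *Rragc* S74N/+ was below the *Rragc*+/+ range and the other 3 were inside it. For *Rictor* the log2 difference was 0.01 (95% interval -0.48 to 0.49, limma adjusted p = 0.996). The mTORC1 scaffold was below the mTORC2 scaffold in all 8 livers, with *Rptor* minus *Rictor* at -1.43 ± 0.30 in *Rragc*+/+ and -1.79 ± 0.63 in *Rragc* S74N/+ on the log2 scale (SD, n = 4 each). This within-liver difference ran from -1.68 to -1.02 and from -2.63 to -1.31, so the genotypes overlapped.

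*Akt1s1* encodes PRAS40, which insulin signaling through AKT releases from Raptor, and lies on chromosome 7 from 44848991 to 44855421 (forward strand). Its counts were 115, 95.4, 62.2 and 86.9 in *Rragc*+/+ and 49.6, 85.3, 86.9 and 43.2 in *Rragc* S74N/+ livers. Replicates 1 and 4 of *Rragc* S74N/+ were below every *Rragc*+/+ liver. *Akt1s1* differed by -0.47 on the log2 scale (standard error 0.31, 95% interval -1.13 to 0.20, limma adjusted p = 0.846; exact permutation p = 0.20). It stayed below 0 in every setting tried, between -0.63 and -0.29.

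*Deptor*, on chromosome 15 from 55112317 to 55259271 (forward strand), was read 2271 to 4356 times per liver, so counting error was small. Its counts were 3689.7, 2532, 3213 and 3680.1 in *Rragc*+/+ and 2683, 2708, 4854 and 1986 in *Rragc* S74N/+ livers. The highest and the lowest of the 8 livers were both *Rragc* S74N/+, replicates 3 and 4. Between genotypes *Deptor* differed by -0.16 on the log2 scale (standard error 0.26, limma adjusted p = 0.897; exact permutation p = 0.657), and without *Rragc* S74N/+ replicate 4 it was 0.02.

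*Tsc1* and *Tsc2* encode hamartin and tuberin, the scaffold and the catalytic subunit of the complex that inactivates Rheb. *Tsc1* lies on chromosome 2 from 28641228 to 28691167 (forward strand), with counts of 77.4, 86.0, 108 and 103 in *Rragc*+/+ and 67.9, 98.7, 111 and 104 in *Rragc* S74N/+ livers. These ranges nearly coincided, with a log2 difference of 0.02 and a 95% interval from -0.51 to 0.55 (limma adjusted p = 0.990). *Tsc2* lies on chromosome 17 from 24595816 to 24632630 (reverse strand), 116737 bases from *Mlst8*. Its counts were 94.2, 76.7, 67.9 and 102 in *Rragc*+/+ and 67.9, 83.5, 45.7 and 58.7 in *Rragc* S74N/+ livers. Replicates 3 and 4 of *Rragc* S74N/+, aged 2.5 and 2 months, were below every *Rragc*+/+ liver. The highest count was in *Rragc*+/+ replicate 4, also 2.5 months old. *Tsc2* differed by -0.42 on the log2 scale (standard error 0.27, limma adjusted p = 0.846; exact permutation p = 0.143). The difference was -0.065 in 3-month-old mice alone and -0.37 with age as a covariate. The *Tsc2* exons overlap those of *Pkd1* on the other strand. Overlaps of that kind are also annotated for *Rptor* (*Rptoros*), *Akt1s1* (*Tbc1d17*), *Deptor* (*Gm9920*) and *Rps6kb1* (*Rnft1*). *Akt1s1* also shares exonic positions with *Mir707* on its own strand, which counting by strand does not keep apart.

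Within a liver, *Tsc1* minus *Tsc2* was 0.14 ± 0.39 in *Rragc*+/+ and 0.58 ± 0.57 in *Rragc* S74N/+ on the log2 scale (SD, n = 4 each), with overlapping ranges of -0.28 to 0.66 and 0.00 to 1.27. Both transcripts of the complex were therefore near parity in most livers, and *Rragc* S74N/+ replicate 3 had the most *Tsc1* relative to *Tsc2*.

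*Rheb*, the GTPase that activates mTORC1, lies on chromosome 5 from 24802823 to 24842624 (reverse strand). Its counts were 40.1, 66.4, 59.4 and 25.2 in *Rragc*+/+ and 84.5, 45.3, 50.1 and 94.6 in *Rragc* S74N/+ livers. Replicates 1 and 4 of *Rragc* S74N/+ were above every *Rragc*+/+ liver, and the other 2 were inside that range. *Rheb* had a log2 difference of 0.54 (standard error 0.36, 95% interval -0.25 to 1.32, limma adjusted p = 0.846; exact permutation p = 0.257). It stayed above 0 in every setting tried, between 0.19 and 0.72. *Rheb* minus *Tsc2* within a liver was -0.89 ± 0.86 in *Rragc*+/+ and 0.06 ± 0.66 in *Rragc* S74N/+ (SD, n = 4 each). That log2 difference was below 0 in all 4 *Rragc*+/+ livers and above 0 in 3 of 4 *Rragc* S74N/+ livers, with replicate 2 at -0.87. It ran from -1.97 to -0.19 and from -0.87 to 0.68, so the genotypes overlapped.

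*Rps6kb1*, on chromosome 11 from 86498871 to 86544805 (reverse strand), had counts of 262, 209, 296 and 291 in *Rragc*+/+ and 210.2, 292, 314 and 194 in *Rragc* S74N/+ livers. Replicate 3 of *Rragc* S74N/+ was the highest of the 8 livers and replicate 4 the lowest, as for *Deptor*. For *Rps6kb1* the log2 difference was -0.08 (95% interval -0.57 to 0.41, limma adjusted p = 0.944; exact permutation p = 0.80).

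**Figure D2:**
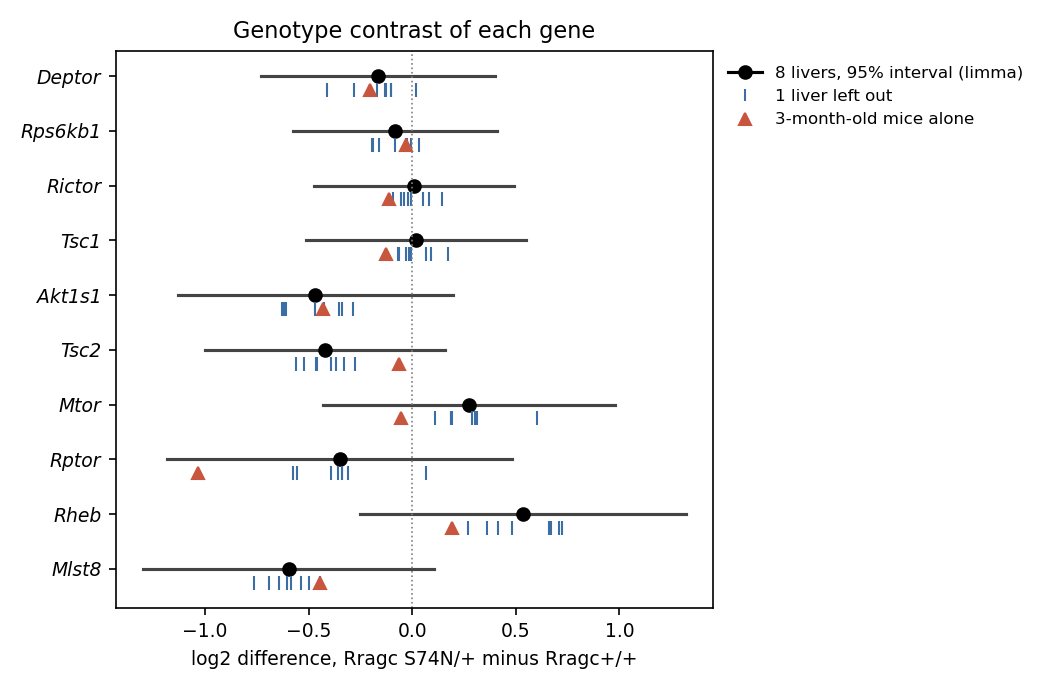
Log2 difference of each gene, *Rragc* S74N/+ minus *Rragc*+/+. Black points and bars give limma's estimate with its 95% interval over 8 livers, blue ticks the 8 estimates with a liver left out, and red triangles the estimate in 3-month-old mice alone. Every interval spans 0, and *Rptor* in 3-month-old mice (-1.03) lies farthest from its estimate over all livers (-0.35).

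The spread between livers was described next. The SD of log2 counts was larger in *Rragc* S74N/+ than in *Rragc*+/+ livers for 9 of 10 genes, where it was larger for 57% of all tested genes. The ratio of the SDs had a median of 1.42 over the 10 genes and 1.11 over all tested genes, and was highest for *Rptor* (9.16) and *Mtor* (3.82). *Rheb* was the exception, with a ratio of 0.85. This description was chosen after the values were seen and carries no test. Ages also ranged more widely in *Rragc* S74N/+ mice, and the part of age in the spread was not tested.

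The extreme counts fell in a few livers. *Rragc* S74N/+ replicate 1 had the lowest count of the 8 livers for *Mtor*, *Rptor*, *Rictor* and *Tsc1*, and was below the mean of the livers for 9 of 10 genes, *Rheb* excepted. Replicate 4, the 2-month-old mouse, had the lowest count for *Mlst8*, *Akt1s1*, *Deptor* and *Rps6kb1* and the highest for *Rheb*. Replicate 3 had the highest count for 5 genes, *Mtor*, *Rptor*, *Deptor*, *Tsc1* and *Rps6kb1*, and the lowest for *Tsc2*. Together the *Rragc* S74N/+ livers held 9 of the 10 lowest and 6 of the 10 highest counts. Replicate 2 held none of them. Where the extremes of all tested genes fall was not examined. These counts are therefore not shown to be particular to the 10 genes.

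**Figure D3:**
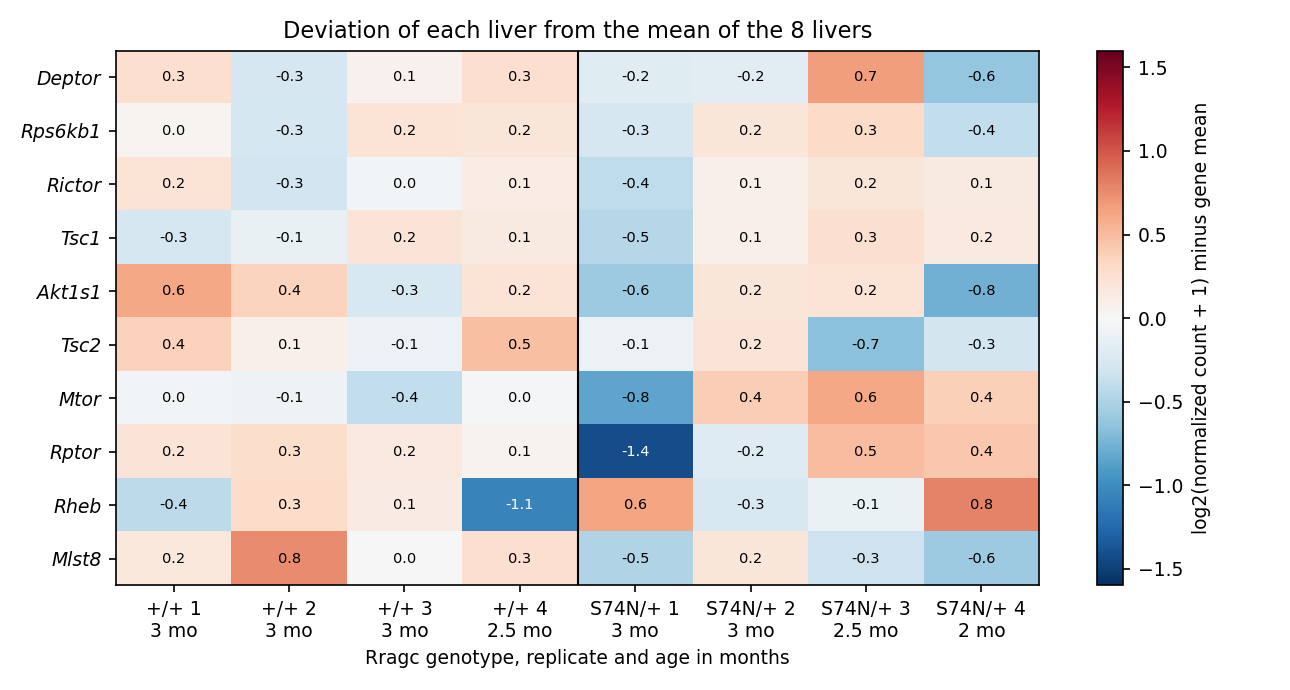
Deviation of log2(normalized count + 1) from the mean of the 8 livers for each gene (rows, ordered by level) and liver (columns, labelled by genotype, replicate and age in months), from blue for below to red for above. *Rragc* S74N/+ replicate 1 is below the mean in 9 of 10 rows and replicate 3 is highest in 5.

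The coefficient of variation over the 8 livers was lowest for *Rictor* (15.2%), *Tsc1* (16.5%) and *Rps6kb1* (18.3%) and highest for *Rheb* (39.7%). Counting error alone, taken as Poisson, gave 7.55%, 10.3%, 6.20% and 13.1% for these genes. For *Deptor* the spread was 28.3% against a counting error of 1.77%. For *Mlst8*, the least read of the genes with 279 reads over all livers, counting error was 17.1% and the spread 32.6%. In each of the 10 genes the spread was above counting error. Reads carry no molecular identifiers and there were no technical replicates, so counting error is a lower limit and noise from library preparation cannot be told apart from differences between livers.

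**Figure D4:**
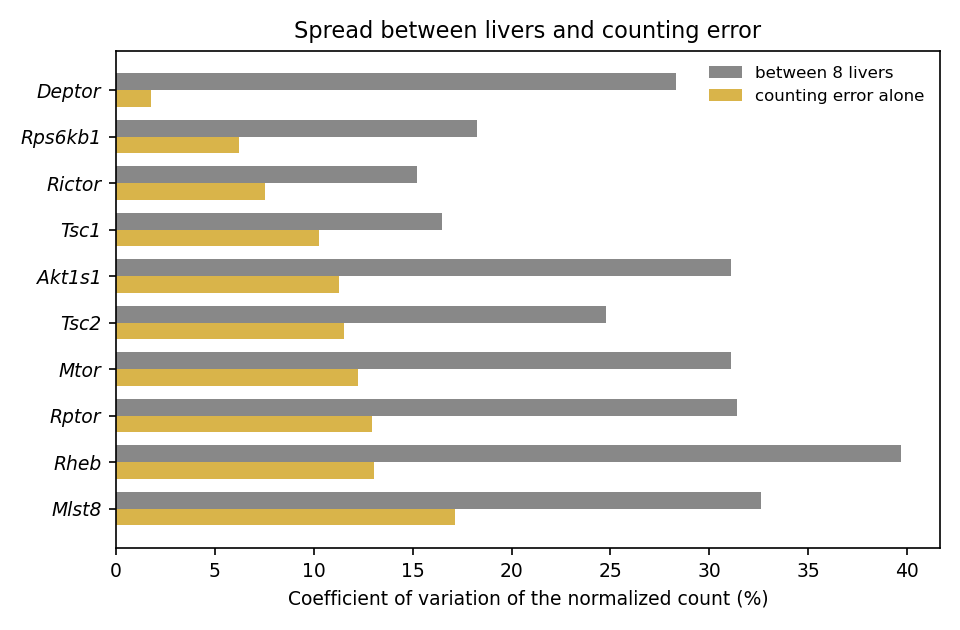
Coefficient of variation of the normalized count (%) over the 8 livers (grey bars) and the part that Poisson counting error alone would give (yellow bars) for each gene. The bars differ most in proportion for *Deptor* (28.3% against 1.77%) and least for *Tsc1* (16.5% against 10.3%).

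Other genes of the pathway were read from the same fit, in 3 lists of complex partners and assembly factors, growth factor and energy inputs, and substrates with the S6 kinase branch. Of 48 genes all were listed and 45 were tested, *Prr5*, *Rhebl1* and *Grb10* having means below 10. None passed an adjusted p of 0.05 with limma, edgeR or DESeq2. At an unadjusted p under 0.05 there was 1 of 45 genes with each tool, *Tfeb*, against 5.17% of all tested genes with limma. That count was 9 without *Rragc* S74N/+ replicate 3, 4 without *Rragc*+/+ replicate 3 and 0 without *Rragc*+/+ replicate 1. Of all genes tested in these fits, 1682 of 11182, 757 of 11164 and 334 of 11198 were under it, in the same order. The count for the whole table thus moved as well. Over all livers, differences of the 45 pathway genes were above 0 for 22 and below 0 for 23, with a median of -0.03.

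Among complex partners and assembly factors 8 of 10 genes were tested, with a median log2 difference of -0.08. The most abundant were *Fkbp8*, a relative of the rapamycin receptor (850 ± 110 in *Rragc*+/+ and 735 ± 136 in *Rragc* S74N/+), *Fkbp1a*, the rapamycin receptor FKBP12 (630.5 ± 142 and 640 ± 85.1), and *Mapkap1*, the mTORC2 subunit SIN1 (122 ± 26.9 and 118 ± 19.7; SD, n = 4 each). Their adjusted p with limma was 0.851 or more.

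All 20 growth factor and energy inputs were tested, with 10 above and 10 below 0 and a median of 0.01. *Akt2*, the main AKT kinase of insulin signaling in liver, was at 717 ± 131 and 797 ± 45.3, *Gsk3b*, a kinase that AKT inhibits, at 781 ± 109 and 757 ± 142, and *Pik3r1*, the regulatory subunit of PI3-kinase, at 565 ± 174 and 463 ± 157 in *Rragc*+/+ and *Rragc* S74N/+ livers (SD, n = 4 each). None of these passed the test (limma adjusted p of 0.851 or more).

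In the substrate list 17 of 18 genes were tested, 9 above and 8 below 0, with a median of 0.05. *Tfeb*, a transcription factor that mTORC1 keeps in the cytoplasm, was at 88.6, 44.9, 59.4 and 56.1 in *Rragc*+/+ and 33.1, 43.5, 27.9 and 33.4 in *Rragc* S74N/+ livers. The groups did not overlap, which held for 1 of these 45 genes and for 2.94% of all tested genes. Its log2 difference of -0.81, with a standard error of 0.30, did not pass adjustment over all genes (limma adjusted p = 0.846; exact permutation p = 0.0286, the smallest possible). Its unadjusted p was no longer under 0.05 without *Rragc*+/+ replicate 1, at -0.63, or in 3-month-old mice alone, at -0.69. *Larp1*, a repressor of ribosomal protein messages, was at 865 ± 196 and 1063 ± 380, and *Pdcd4*, a translation inhibitor that S6 kinase marks for degradation, at 924 ± 211 and 783 ± 89.1 (SD, n = 4 each). *Eif4ebp2*, a repressor of cap-dependent translation, had counts of 681, 858, 823 and 386 in *Rragc*+/+ and 1647, 805, 522 and 1233 in *Rragc* S74N/+ livers. As for *Rheb*, its highest values were in *Rragc* S74N/+ replicates 1 and 4 and its lowest in *Rragc*+/+ replicate 4. The groups overlapped (limma adjusted p = 0.846).

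The genes whose pattern over the 8 livers was most like that of the 3 most abundant transcripts were sought among the other 11164 tested genes by Pearson r of log2 counts. These are the top of a long ranking over 8 points that share library preparation and scaling, and are a description. For *Deptor* they were *Zzef1* (r = 0.98, mean count 234) and *Yipf1* (r = 0.97, mean count 451), both highest in *Rragc* S74N/+ replicate 3 and lowest in replicate 4. For *Rps6kb1* they were *Bco2* (r = 0.99, mean count 59.7) and *Arl6ip6* (r = 0.96, mean count 123), with the same extreme livers. For *Rictor* they were *Smo* (r = 0.97) and *Trim5* (r = 0.97), whose mean counts of 13.1 and 19.7 are low.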

How the data were processed

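Liver RNA was profiled in 8 mice with a 3′ end library kit. Per the study's methods and the submitters' processing notes, alignment by the authors was to GRCm38, using TopHat2 2.0.10, Bowtie 1.0.0 and SAMtools 0.1.19 and reads were counted per gene by strand with HTSeq 0.6.1. The methods name DESeq for the differential test and the notes name DESeq2. What the authors deposited is a signal: counts after division by a scaling factor of each liver. All values (100%, within 1e-06) were whole multiples of the smallest value above 0 of their liver, which gave back the reads.

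Here, limma 3.58.1 in R 4.3.3 was fitted to log2(normalized count + 1), with a mean-variance trend and genotype as the only term, for genes with a mean of at least 10. Benjamini-Hochberg adjustment was over all tested genes, at 0.05. This scale understates changes of low counts. Single genes were also compared by exact permutation of genotype over the livers (two-sided, 70 labellings, scipy 1.17.1), which cannot give a p below 0.0286. As alternatives, the recovered reads went into DESeq2 1.42.0 (all listed genes, or those with a mean of at least 10) and into the quasi-likelihood test of edgeR 4.0.16. The pseudocount, filter, scaling and trend were also varied, age entered as a term, the fit was limited to 3-month-old mice, and each liver was left out in turn. The scripts were tested on simulated data.

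Genotypes and ages came from the labels, and replicates were numbered in sample order. The 10 genes, the pathway lists and the marker lists were chosen with earlier results of these data known. Named pathway genes were those with an unadjusted limma p under 0.05 and the 3 most abundant of each list. For the 3 most abundant of the 10 genes, the 2 tested genes of highest Pearson r were named. Gene positions are those of GENCODE M21 on GRCm38. Protein sequences were not used here.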

Additional observations from a re-analysis of the deposited data

How the results depend on the processing

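With limma, 1 gene of all those tested had an adjusted p under 0.05. This count became 0 when the trend was dropped, 0 with age as a covariate, and 0 in 3-month-old mice alone, where 603, 415 and 640 genes had an unadjusted p under 0.05. DESeq2 on all 14506 listed genes gave 6, with 835 unadjusted, and on the 11174 genes that limma tested it gave 10, with 675 unadjusted, a setting added after seeing the data. Leaving out a liver gave 2 without *Rragc* S74N/+ replicate 3, where 1682 genes had an unadjusted p under 0.05, and 0 without any of the other livers, with 312 to 757 unadjusted. The cause was not tested. None of the 10 genes and none of the other pathway genes passed an adjusted p of 0.05 in any of the 12 alternatives or the 8 fits without a liver. The smallest adjusted p of the 10 genes was 0.359 (limma, *Akt1s1* without *Rragc* S74N/+ replicate 3). At an unadjusted p under 0.05 there were 4 values of these genes, *Mlst8* without the trend and without *Rragc* S74N/+ replicate 2, *Rptor* in 3-month-old mice alone and *Mtor* without *Rragc* S74N/+ replicate 1.

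For the 10 genes, the sign of 18 of 199 recomputed differences turned, 13 of them in fits without a liver. For 4 of the 10 genes (*Mlst8*, *Akt1s1*, *Tsc2* and *Rheb*) the sign never turned. In 3-month-old mice alone *Mtor* was at -0.0535, *Rictor* at -0.112, *Tsc1* at -0.126 and *Gsk3b*, the other way, at 0.0571. With age as a covariate *Rictor* was at -0.0756 and *Tsc1* at -0.0786. Without a liver the ranges were -0.0927 to 0.143 for *Rictor*, -0.0672 to 0.171 for *Tsc1*, -0.574 to 0.0658 for *Rptor*, -0.413 to 0.0167 for *Deptor*, -0.196 to 0.0343 for *Rps6kb1*, -0.141 to 0.115 for *Fkbp1a*, -0.153 to 0.0575 for *Gsk3b* and -0.164 to 0.0522 for *Mapkap1*. The cause was not tested. *Mlst8* and *Tfeb* have no value at a mean of at least 50, which they do not reach. No paired analysis was possible because nothing in the labels ties a mouse of one genotype to a mouse of the other.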
